A study of Mus musculus with 24 samples.

Results

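The disease-associated microglia genes described here are 10 genes that microglia are known to raise around damaged neurons, amyloid plaques and lesions: the receptor Trem2 and its adaptor Tyrobp, the surface receptors Itgax and Clec7a, the protease inhibitor Cst7, the secreted proteins Spp1 and Lgals3, the lysosomal glycoprotein Gpnmb, and the lipid genes Apoe and Lpl. They were chosen by symbol, with earlier results of these data known, and all 10 were found among the 18647 genes of the count table. The libraries hold polyA RNA from the microdissected CA1 field of the hippocampus of adult C57Bl/6N mice, at least 60 days old, after status epilepticus (SE), a long continuous seizure that can be followed weeks later by epilepsy. The study asked how transcription in CA1 shifts in the first days after SE. There are 24 libraries in 8 groups of 3, namely SE induced with pilocarpine (335 mg/kg) and sampled at 5 times from 6 to 72 h (also 12, 24 and 36 h), and controls (Ctr) at 12, 36 and 72 h. Ctr mice were given saline in place of pilocarpine. All groups, Ctr included, had received scopolamine methyl nitrate (1 mg/kg) 20 min beforehand, and the protocol gave diazepam (4 mg/kg) 40 min after the onset of SE, with controls otherwise treated alike. Of the mice given pilocarpine, those that did not develop SE were left out, so a comparison of SE with Ctr holds the drug and the seizure together.

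Microglia are the resident macrophages of the brain. In the resting state they express a homeostatic set of genes such as P2ry12 and Tmem119, and around injury they can shift to a disease-associated program in which the homeostatic genes fall and genes of phagocytosis, lysosomes and lipid handling rise. Trem2 binds lipids and lipoproteins, including apolipoprotein E, and signals through Tyrobp (DAP12), whose cytoplasmic tail recruits the kinase Syk. In mouse models of amyloid disease the later stage of the program needs Trem2, whereas Tyrobp and Apoe rise in an earlier stage.

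Total counts ran from 2663936 to 30133731 per library, with a median of 13521590, and the 2 smallest libraries were both Ctr 72 h. One library stood apart: Ctr 72 h replicate 2 held 3466 CPM (counts of a gene scaled to a common library total) summed over 14 genes of sensory ganglia, such as Prph, Scn10a and Avil, against 76.4 to 214 in the other 8 Ctr libraries. Of the SE libraries, 4 also exceeded 1000 CPM (SE 12 h replicate 1, SE 36 h replicate 3, SE 72 h replicates 1 and 2), and the remaining 11 ranged up to 758. The Ctr library with the ganglion genes was also the Ctr library with most Spp1, at 48.6 CPM, and most Lgals3, at 7.84 CPM. The part of ganglion tissue in either gene was not tested, and the values without that library and without all 5 libraries stand beside the results they touch. Because these are bulk samples, fewer cells of a type and less RNA per cell cannot be told apart.

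**Figure D1:**
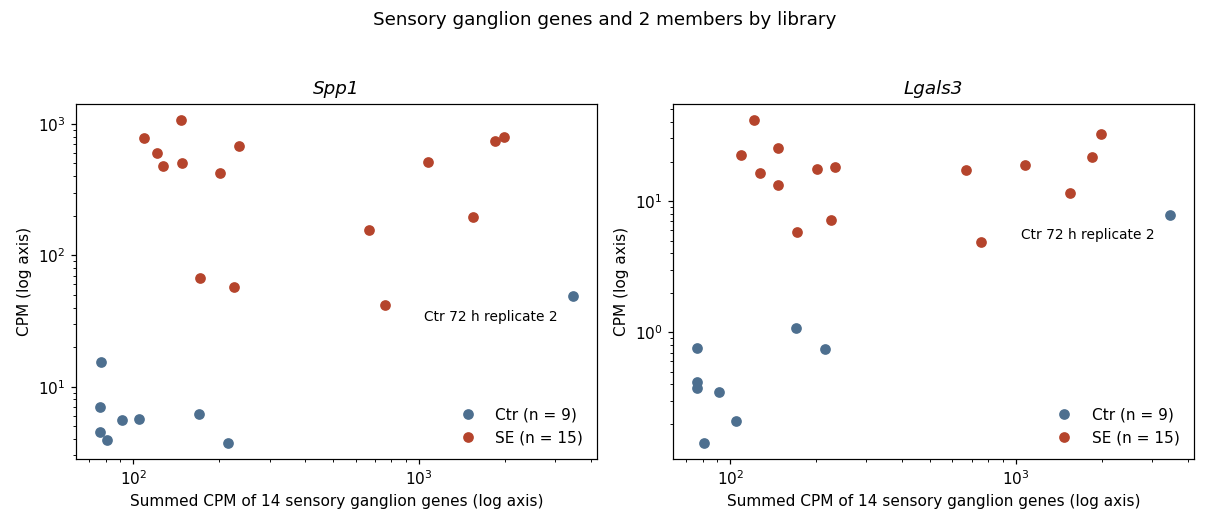
Spp1 (left) and Lgals3 (right) in CPM against the summed CPM of 14 sensory ganglion genes, both on log axes, 1 point per library, blue for the 9 Ctr and red for the 15 SE libraries. Ctr 72 h replicate 2 lies at 3466 CPM of ganglion genes and at 48.6 CPM of Spp1, above the other 8 Ctr libraries in both panels.

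The members lie on several chromosomes. On the GRCm39 build used for the counts, the annotation places Spp1 at chr5:104582165-104589235, Trem2 at chr17:48653429-48661175, Gpnmb at chr6:49013426-49047863 and Itgax at chr7:127728668-127749829, all on the plus strand. Promoter windows (250 bases before to 50 after a start, RefSeq, build GRCm38.p6) were found for 8 of the 10 members, 12 windows in all. Lpl and Tyrobp had no entry. The 4 windows below are shown because the group means of these genes were highest at different times. These were 36 h for Spp1, 72 h for Gpnmb and Trem2 and 6 h for Itgax. The Itgax means at 6 and 72 h were close (3.13 and 3.08 CPM), and the Spp1 libraries of 36 and 72 h overlapped. Capitals mark matches, on either strand, to the core GAGGAA of PU.1 (the macrophage factor encoded by Spi1; TTCCTC on the other strand), to the AP-1 site TGANTCA and to the C/EBP site TTGCNNAA.
Spp1, chr5:104434861-104435160, plus strand: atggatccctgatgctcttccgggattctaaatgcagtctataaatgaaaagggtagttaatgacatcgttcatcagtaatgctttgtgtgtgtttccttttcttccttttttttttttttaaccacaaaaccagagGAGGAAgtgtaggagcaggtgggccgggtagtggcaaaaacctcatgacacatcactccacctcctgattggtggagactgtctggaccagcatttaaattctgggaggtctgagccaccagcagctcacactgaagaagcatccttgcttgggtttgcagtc
Gpnmb, chr6:49036268-49036567, plus strand: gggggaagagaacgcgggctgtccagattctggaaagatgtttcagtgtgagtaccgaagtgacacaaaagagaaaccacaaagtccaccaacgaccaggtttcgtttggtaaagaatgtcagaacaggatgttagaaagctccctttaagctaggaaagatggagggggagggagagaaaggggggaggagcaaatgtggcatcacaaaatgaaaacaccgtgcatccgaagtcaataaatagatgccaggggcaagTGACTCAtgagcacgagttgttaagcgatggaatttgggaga
Itgax, chr7:128129300-128129599, plus strand: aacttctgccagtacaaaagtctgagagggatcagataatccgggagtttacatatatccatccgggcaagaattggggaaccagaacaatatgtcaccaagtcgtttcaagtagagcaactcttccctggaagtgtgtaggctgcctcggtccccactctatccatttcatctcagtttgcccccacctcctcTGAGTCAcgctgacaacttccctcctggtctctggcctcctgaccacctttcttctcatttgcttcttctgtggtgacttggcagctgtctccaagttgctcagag
Trem2, chr17:48346151-48346450, plus strand: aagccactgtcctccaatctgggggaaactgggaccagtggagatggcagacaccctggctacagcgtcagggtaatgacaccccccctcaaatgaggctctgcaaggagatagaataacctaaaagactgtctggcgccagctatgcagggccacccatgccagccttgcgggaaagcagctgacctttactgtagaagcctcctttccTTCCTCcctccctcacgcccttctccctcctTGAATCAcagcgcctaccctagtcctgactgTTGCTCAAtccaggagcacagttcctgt
The AP-1 letters lay at 9 bases from the start in Gpnmb, at -56 in Itgax and at -9 in Trem2, and also at -6 in Cst7, where they overlapped a C/EBP match. They occurred in 4 of the 12 member windows and in 7.81% of all 32851 windows. The PU.1 core occurred in 6 of the 12 member windows (of Spp1, Clec7a, Apoe and Trem2) and in 28.3% of all windows. The 2 windows of Clec7a overlap and share the same match. The C/EBP letters occurred in 3 of the 12 member windows (of Spp1, Cst7 and Trem2) and in 10.8% of all windows. Spp1 has 2 windows, and its C/EBP match lay in the one not shown, chr5:104435942-104436241. The CACGTG box bound by MITF and TFE factors occurred in 0 of the 12 member windows against 7.15% of all. The letters are a description and do not show that a factor was bound.

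Most members were higher after SE from the first time point on, and by 24 h all 10 were called in one direction or the other. A gene was called when edgeR's quasi-likelihood test gave an adjusted p (Benjamini-Hochberg over the 18153 genes tested) of at most 0.05 and a log2 fold change of at least 0.66 in size, and all 10 members passed the filter on low counts. At 6 h, 7 members rose against the mean of the 3 Ctr groups, where 15.8% of all genes tested rose and 6.21% fell. At 12 h, 7 rose against Ctr 12 h (13.9% of all genes rose and 11.4% fell). At 24 h, 9 rose and 1, Apoe, fell against the mean of the Ctr groups (14.9% and 9.21% of all genes), and the same 9 and 1 did so at 36 h against Ctr 36 h (12.7% and 8.91%). At 72 h, 8 rose against Ctr 72 h (15.2% of all genes rose and 4.21% fell), and Lpl and Apoe did not pass. The comparisons at 6 and 24 h use the same 9 Ctr libraries. The members' median log2 fold change was 2.13, 1.86, 2.44, 3.46 and 3.55 in the order of time, beside 0.06, 0.01, 0.04, 0.00 and 0.10 over all genes tested.

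Spp1, Lgals3, Gpnmb, Cst7 and Itgax rose in all 5 comparisons, as did 3.65% of all genes, and with Tyrobp 6 members rose at all 3 times that have a Ctr group of their own, as did 4.65% of all genes. For Gpnmb, Cst7 and Itgax each of the 15 SE libraries lay above each of the 9 Ctr libraries, which held for 3.03% of all genes. Without the 5 libraries over 1000 CPM of ganglion genes, 7, 7, 10, 10 and 7 members were called in the order of time. That fit leaves 1 library in SE 72 h, which is assumed to vary like the libraries of the other groups, so its last count has no replicates behind it. The libraries carry label numbers in 3 runs whose meaning the labels do not give. At 72 h no run held both SE and Ctr, and at 24 h none held a Ctr library, so there the run and the condition cannot be told apart. At 36 h, 2 SE and 3 Ctr libraries of 1 run gave log2 differences of 7.44 for Spp1, 3.92 for Gpnmb, 1.23 for Trem2 and -1.26 for Apoe. At 12 h, 1 SE and 1 Ctr library of a run gave 5.10 for Spp1 and 0.97 for Lpl.

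**Figure D2:**
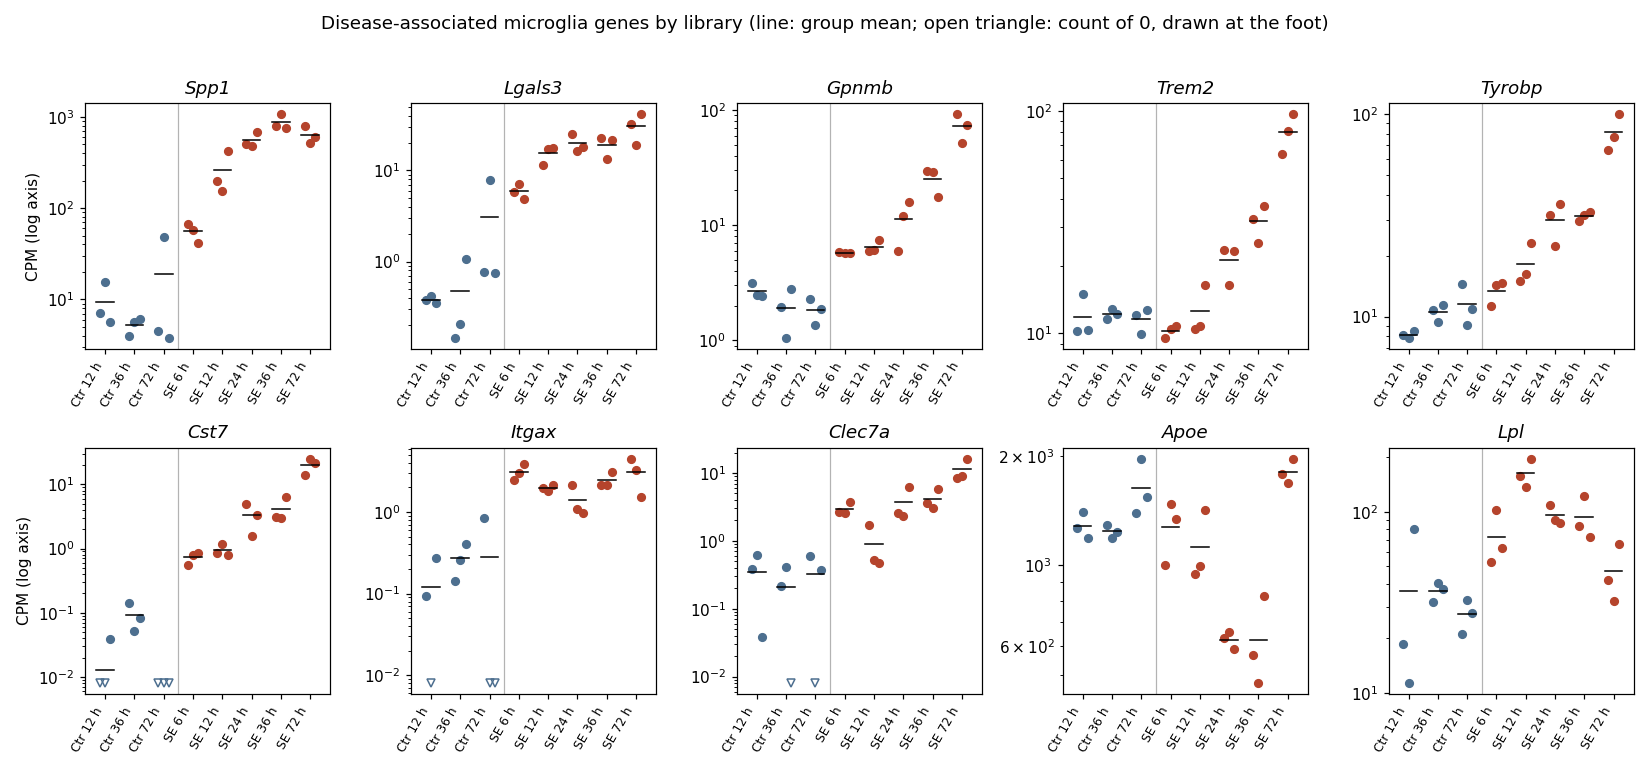
CPM of each member in each of the 24 libraries (log axes, 3 per group), blue for Ctr and red for SE, with a line at the group mean and open triangles at the foot for a count of 0. The group means of Gpnmb, Trem2, Tyrobp, Cst7 and Clec7a were highest at 72 h, that of Spp1 at 36 h and that of Lpl at 12 h. Apoe had group means of 625 and 622 CPM at 24 and 36 h.

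Trem2, the receptor that gates the late stage of the program, rose late. It was 10.2, 15.1 and 10.4 CPM in Ctr 12 h, 11.7, 12.8 and 12.2 in Ctr 36 h and 12.1, 9.89 and 12.7 in Ctr 72 h. It was 9.51, 10.5 and 10.8 CPM at SE 6 h and 10.4, 10.8 and 16.6 at SE 12 h, within or next to the Ctr range. It then reached 23.8, 16.5 and 23.5 CPM at 24 h, 32.8, 25.5 and 37.3 at 36 h and 64.3, 80.9 and 97.0 at 72 h. The 9 libraries of these last 3 times all lay above the highest Ctr value, 15.1. The log2 fold changes were -0.21 ± 0.17 (standard error, edgeR, adjusted p = 0.364) at 6 h and 0.07 ± 0.20 (edgeR, adjusted p = 0.813) at 12 h, neither of which passed. Trem2 rose by 0.84 ± 0.16 at 24 h (edgeR, adjusted p = 0.00033), by 1.39 ± 0.20 at 36 h (edgeR, adjusted p = 3.07e-05) and by 2.81 ± 0.22 at 72 h (edgeR, adjusted p = 1.58e-08), which is 6.99-fold. With the run of label numbers as a factor the 24 h value was 0.48 and no longer passed.

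Tyrobp, the signalling adaptor of Trem2 and of other myeloid receptors, was called from 12 h on. Across the 9 Ctr libraries it ran from 7.81 to 14.5 CPM with a median of 9.34. It was 11.3, 14.3 and 14.7 CPM at SE 6 h, 14.96, 16.1 and 23.1 at 12 h, 31.6, 22.4 and 35.8 at 24 h, 29.6, 31.8 and 32.8 at 36 h and 66.2, 76.7 and 100.02 at 72 h, so that from 12 h on every SE library exceeded every Ctr library. At 6 h the log2 fold change was 0.43 ± 0.15 (edgeR, adjusted p = 0.0306), below the size required. It rose by 1.13 ± 0.19 at 12 h (edgeR, adjusted p = 0.000119), 1.58 at 24 h and 36 h and 2.80 ± 0.20 at 72 h (edgeR, adjusted p = 5.76e-09). At 12 h Tyrobp passed and Trem2 did not, and the difference between the 2 genes was not tested.

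The other genes of this signalling chain were called in growing numbers. Of 18 genes tested in a list of kinases, adaptors and sheddases around Trem2 and Tyrobp, 7 rose and 1 fell at 6 h, and 9, 13, 13 and 14 rose at 12, 24, 36 and 72 h. The list's median log2 fold change grew from 0.30 at 6 h to 2.63 at 72 h. Vav1, a signalling protein of blood cells, rose by 1.42 ± 0.17 at 6 h and 1.69 ± 0.22 at 12 h, when Syk rose by 1.65 ± 0.28. Pik3ap1, an adaptor that links receptors to PI3 kinase, rose by 2.35 ± 0.25 at 24 h, 2.85 ± 0.33 at 36 h and 4.21 ± 0.40 at 72 h, when its group means were 3.86 CPM in Ctr and 41.9 CPM in SE. Card9, an adaptor downstream of Syk and Clec7a, fell by 0.81 on the log2 scale at 6 h (standard error 0.27). Without the 5 ganglion-rich libraries the 6 h count of this list was 5.

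Cst7, which encodes cystatin F, an inhibitor of lysosomal cathepsins, was almost absent from Ctr. The 9 Ctr libraries held 5 counts in all, 1 in the Ctr 12 h group, 4 in Ctr 36 h and 0 in Ctr 72 h. The SE libraries held 7, 8 and 20 counts at 6 h (0.559, 0.784 and 0.849 CPM), 17, 35 and 10 at 12 h, 47, 36 and 48 at 24 h, 42, 38 and 110 at 36 h and 234, 263 and 439 at 72 h (13.8, 25.1 and 21.4 CPM). Every SE library thus held more than any Ctr library, whose highest value was 0.144 CPM.

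Cst7 was called in all 5 comparisons (edgeR, adjusted p from 7.18e-05 at 12 h to 1.12e-08 at 24 h). Since a control group stood at 0, ratios of summed counts are given in place of fitted fold changes, with exact 95% Poisson intervals that cover counting error only. The ratio was 17.6 (6.88 to 57.6) at 6 h and 65.4 (27.3 to 205) at 24 h against all 9 Ctr libraries, 50.2 (8.69 to 2015) at 12 h against Ctr 12 h and 49.1 (18.9 to 182) at 36 h against Ctr 36 h. At 72 h Cst7 was at least 133-fold higher than in Ctr 72 h, taking 3 counts over the Ctr group as the most that its count of 0 allows.

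Itgax, the integrin subunit CD11c, had its highest group mean already at 6 h. It held at most 10 counts in a Ctr library (0 to 0.844 CPM), and the highest was Ctr 72 h replicate 1. It was 2.48, 3.04 and 3.86 CPM at SE 6 h, 1.99, 1.82 and 2.15 at 12 h, 2.12, 1.09 and 0.981 at 24 h, 2.15, 2.13 and 3.13 at 36 h and 4.50, 3.24 and 1.51 at 72 h. All SE libraries exceeded the highest Ctr value, and the libraries of 72 h overlapped those of every other SE time. The log2 fold changes were 3.63 ± 0.49 at 6 h (edgeR, adjusted p = 1.01e-05) and 3.68 ± 0.72 at 12 h. They were 2.43 ± 0.53 at 24 h, 3.19 ± 0.68 at 36 h and 3.03 ± 0.75 at 72 h (edgeR, adjusted p = 0.00496). The 72 h call turned on few counts: without Ctr 72 h replicate 1 the Ctr group was at 0 and Itgax was at least 8.37-fold higher, and without the 5 ganglion-rich libraries, which left 1 library in SE 72 h, the value was 1.28 (edgeR, adjusted p = 0.372). Without Ctr 72 h replicate 1 the fitted values at 6 and 24 h moved to 5.98 and 4.77, and without Ctr 12 h replicate 3 the value at 12 h moved to 5.34.

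Clec7a (dectin-1), a receptor for fungal glucans that signals through Syk, was called at every time but 12 h. It ran from 0 to 0.622 CPM in Ctr. It was 2.64, 2.55 and 3.69 CPM at SE 6 h, then 1.69, 0.530 and 0.478 at 12 h, 2.55, 2.35 and 6.17 at 24 h, 3.63, 3.07 and 5.87 at 36 h and 8.58, 9.16 and 16.2 at 72 h. At 12 h, 2 of the 3 SE libraries lay within the Ctr range, and at the other times none did. The log2 fold change was 3.34 ± 0.56 at 6 h (edgeR, adjusted p = 9.98e-05), 1.58 ± 0.79 at 12 h (edgeR, adjusted p = 0.121, not passed), 3.64 ± 0.55 at 24 h, 4.15 ± 0.78 at 36 h and 5.01 ± 0.85 at 72 h (edgeR, adjusted p = 0.00017). The difference between 6 and 12 h did not pass (-1.68 ± 0.65, edgeR, adjusted p = 0.145). The counts were low, 56 in all at SE 12 h, and single libraries moved the 12 h value between 0.73 and 2.57 and the 72 h value between 4.34 and 6.46, the highest without Ctr 72 h replicate 1. At 24 h the value was 3.05 without SE 24 h replicate 3, and at 36 h it was 5.13 without Ctr 36 h replicate 2.

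Spp1 had the largest log2 fold change of any member at 36 h. Osteopontin, its product, is a secreted phosphoprotein that binds integrins and CD44. Spp1 was 7.004, 15.4 and 5.61 CPM in Ctr 12 h, 3.96, 5.64 and 6.16 in Ctr 36 h and 4.56, 48.6 and 3.75 in Ctr 72 h. It was 67.4, 57.6 and 41.5 CPM at SE 6 h, 197, 155 and 426 at 12 h, 505, 475 and 683 at 24 h, 786, 1077 and 745 at 36 h and 797, 511 and 598 at 72 h. Of the 15 SE libraries, 14 exceeded every Ctr library, and the exception, SE 6 h replicate 3, fell below Ctr 72 h replicate 2 alone.

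The log2 fold changes of Spp1 were 2.80 ± 0.32 at 6 h (edgeR, adjusted p = 1.48e-06), 4.84 ± 0.47 at 12 h, 6.10 ± 0.32 at 24 h, 7.41 ± 0.53 at 36 h (170-fold, edgeR, adjusted p = 4.35e-09) and 5.93 ± 0.52 at 72 h (61.0-fold, edgeR, adjusted p = 6.78e-08). Among the genes called higher at 36 h, 2308 in all, it stood 26th by fold change. The 72 h value was 7.199 ± 0.57 without Ctr 72 h replicate 2 (edgeR, adjusted p = 4.44e-08) and 5.10 without replicate 1. At 12 h it was 5.48 without Ctr 12 h replicate 2 and 4.22 without SE 12 h replicate 3. Gm42793, an unclassified transcript model that overlaps Spp1 on the same strand, had 0 counts in all 9 Ctr libraries and 0.0954 to 1.26 CPM in SE. Reads over both can be left out of either count, which was not tested.

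Lgals3, the lectin galectin-3, was called at every time. It ran from 0.144 to 1.07 CPM in 8 Ctr libraries and was 7.84 CPM in Ctr 72 h replicate 2. It was 5.83, 7.15 and 4.88 CPM at SE 6 h, 11.5, 17.1 and 17.7 at 12 h, 25.2, 16.5 and 18.2 at 24 h, 22.5, 13.3 and 21.8 at 36 h and 32.5, 18.98 and 41.7 at 72 h. All 15 exceeded the 8 Ctr libraries, and 12 also exceeded Ctr 72 h replicate 2. Lgals3 rose by 3.13 ± 0.37 at 6 h (edgeR, adjusted p = 2.37e-06) and 5.40 ± 0.53 at 12 h, then by 4.86 ± 0.34 at 24 h, 5.44 ± 0.53 at 36 h and 4.08 ± 0.51 at 72 h (edgeR, adjusted p = 5.17e-06). Without Ctr 72 h replicate 2 the 72 h value was 5.34 ± 0.58, without Ctr 72 h replicate 1 it was 3.11, and without Ctr 36 h replicate 3 the 36 h value was 6.66.

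Genes of receptors and other binding partners of osteopontin and galectin-3 were called in growing numbers. Of 13 tested, 5, 7, 7, 8 and 11 rose in the order of time, and 1, 1, 2, 2 and 1 fell. CD44, a receptor for hyaluronan as well as osteopontin, rose by 3.89 ± 0.26 at 6 h, 6.17 ± 0.26 at 24 h (384 against 11.2 CPM) and 3.67 ± 0.39 at 72 h. Its Ctr mean was 26.7 CPM at 72 h against 3.91 and 2.96 CPM at 12 and 36 h, and without Ctr 72 h replicate 2 the Cd44 values were 4.34 ± 0.22 at 6 h, 6.63 ± 0.23 at 24 h and 4.97 ± 0.39 at 72 h. Itga5, the alpha subunit of the fibronectin receptor, rose by 3.15 ± 0.22 at 6 h and 5.59 ± 0.22 at 24 h. Itgb2, the partner subunit of CD11b and CD11c, rose by 3.60 ± 0.26 at 72 h. Itga4, an integrin subunit of leukocytes and also of some neurons, fell by 1.76 on the log2 scale at 6 h and by 1.84 at 36 h. Both Spp1 and CD44 are also made by astrocytes and other cells after injury, and their source in CA1 cannot be read from bulk tissue.

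Gpnmb, a transmembrane glycoprotein that accumulates in lysosomes under lipid load, was highest at 72 h. It was 1.04 to 3.12 CPM in the 9 Ctr libraries. It was 5.83, 5.68 and 5.69 CPM at SE 6 h, 5.91, 6.07 and 7.49 at 12 h, 5.95, 12.0 and 16.045 at 24 h, 29.3, 28.8 and 17.4 at 36 h and 92.4, 51.9 and 74.4 at 72 h. No SE library overlapped the Ctr range, and no library at 72 h overlapped those of earlier times. Gpnmb rose by 1.45 ± 0.27 at 6 h (edgeR, adjusted p = 0.000284) and 1.28 ± 0.33 at 12 h, then by 2.45 ± 0.25 at 24 h, 3.73 ± 0.35 at 36 h and 5.29 ± 0.39 at 72 h (39.2-fold, edgeR, adjusted p = 7e-09).

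Apoe, the lipid carrier that Trem2 binds and that astrocytes make in large amount, was the 1 member that fell. It was 1266, 1399.9 and 1186 CPM in Ctr 12 h, 1289, 1193 and 1237 in Ctr 36 h and 1394, 1966 and 1543 in Ctr 72 h. It was 999.6, 1479 and 1338 CPM at SE 6 h and 949.6, 997 and 1419.6 at 12 h, then 630.5, 657 and 588 at 24 h and 566, 474 and 824 at 36 h, below every Ctr library. At 72 h it was back at 1783, 1684 and 1960.4 CPM, above 8 of the 9 Ctr libraries. It fell by 1.13 on the log2 scale at 24 h (standard error 0.16, edgeR, adjusted p = 1.01e-05) and by 1.00 at 36 h (standard error 0.18, edgeR, adjusted p = 0.000274). At 6, 12 and 72 h the values were -0.11 ± 0.15, -0.19 ± 0.18 and 0.17 ± 0.18 (edgeR, adjusted p = 0.605, 0.426 and 0.529).

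Of 8 astrocyte genes, 3 rose and 3 fell at 24 h and 4 rose and 3 fell at 36 h, the times at which Apoe fell. The gap junction gene Gja1 fell by 1.09 and 1.32 on the log2 scale and the glutamate transporter gene Slc1a2 by 1.09 and 1.30. Gfap and Aqp4 rose by 3.77 ± 0.17 and 1.83 ± 0.17 at 24 h, by 4.31 ± 0.26 and 1.92 ± 0.23 at 36 h and by 4.999 ± 0.26 and 2.56 ± 0.24 at 72 h. The part of astrocytes in the course of Apoe was not tested.

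Lpl, lipoprotein lipase, which splits triglycerides and is also present in hippocampal pyramidal neurons, had its highest group mean at 12 h. It was 18.6, 11.3 and 80.2 CPM in Ctr 12 h, where replicate 3 was far above the others, 31.9, 40.4 and 37.4 in Ctr 36 h and 21.2, 32.4 and 27.7 in Ctr 72 h. It was 53.0, 102 and 63.3 CPM at SE 6 h, 158, 138 and 196 at 12 h, 109, 90.1 and 87.0 at 24 h, 83.7, 122 and 72.7 at 36 h and 42.1, 32.3 and 66.1 at 72 h. At 12, 24 and 36 h all SE libraries but 1 exceeded all Ctr libraries. Lpl rose by 1.14 ± 0.36 at 6 h (edgeR, adjusted p = 0.0158), 2.14 ± 0.47 at 12 h (edgeR, adjusted p = 0.00137), 1.53 ± 0.35 at 24 h and 1.35 ± 0.46 at 36 h (edgeR, adjusted p = 0.0314), and its value at 72 h, 0.84 ± 0.49, did not pass (edgeR, adjusted p = 0.215). With the run of label numbers as a factor the 72 h value passed. Without Ctr 12 h replicate 3 the 12 h value was 3.46. Neuron markers were read beside Lpl: of 10, 2, 2, 3 and 3 fell at 12, 24, 36 and 72 h, and of 6 markers of CA1 pyramidal cells 1, 3 and 2 fell at 24, 36 and 72 h, Camk2a by 1.79 and Fibcd1 by 3.28 at 36 h. The summed neuron markers ran from 11332 to 17750 CPM in Ctr and from 7407 to 8734 CPM in SE 72 h, and their part in the course of Lpl was not tested. The annotation places antisense lncRNAs over Gpnmb, Lpl, Apoe and Trem2, and without strand their reads cannot be told apart. The 6 h call of Lpl was lost without SE 6 h replicate 2 (0.82), and the 36 h call without any 1 of the 3 Ctr 36 h libraries or SE 36 h replicate 2, at values from 1.096.

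Other genes of lipid efflux and uptake were read beside Apoe and Lpl. Of 21 tested, 3, 6, 6, 6 and 10 rose in the order of time. The scavenger receptor gene Msr1 went from 0.314 CPM in the Ctr mean to 51.4 CPM at 24 h, a rise of 7.50 ± 0.38 (edgeR, adjusted p = 7.24e-12), and to 23.3 CPM at 72 h. Plin2, which coats lipid droplets, rose by 3.05 ± 0.27 at 12 h and 2.78 ± 0.28 at 72 h. Angptl4, an inhibitor of lipoprotein lipase, rose by 2.97 ± 0.45 at 6 h.

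**Figure D3:**
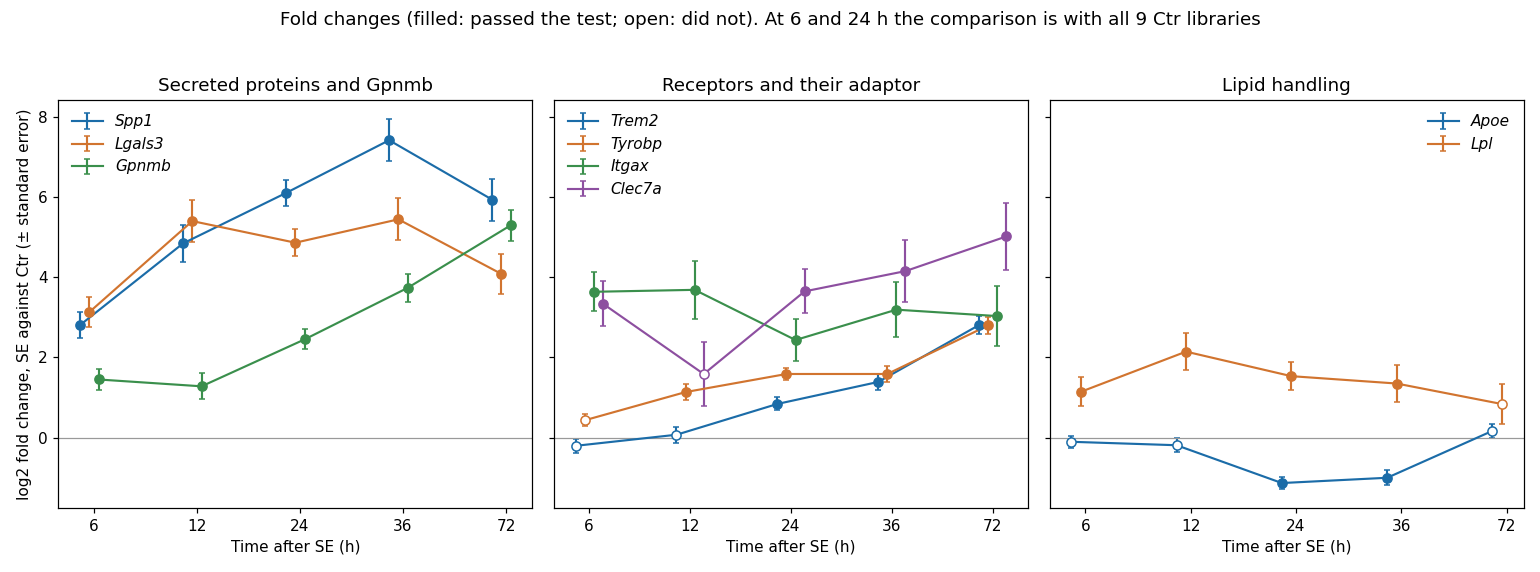
Log2 fold change of SE against Ctr (edgeR, ± standard error) at the 5 times for 9 members, filled where the test was passed and open where it was not (Cst7 is left out because a Ctr group was at 0). Spp1 reached 7.41 at 36 h, Gpnmb climbed from 1.28 at 12 h to 5.29 at 72 h, Trem2 and Tyrobp met at 2.81 and 2.80 at 72 h, and Apoe lay below 0 at 24 and 36 h.

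Between consecutive SE times the members did not move together. A change here was called at a log2 fold change of at least 1 in size. From 6 to 12 h Spp1 rose by 2.27 ± 0.41 (edgeR, adjusted p = 0.00528) and Lgals3 by 1.42 ± 0.39 (edgeR, adjusted p = 0.0433), 2 members where 0.446% of all genes rose, and the call of Lgals3 was lost without any 1 of 5 libraries (all 3 of SE 6 h and SE 12 h replicates 2 and 3). Without SE 12 h replicate 3 the change of Spp1 was 1.65. From 12 to 24 h Cst7 alone was called, by 1.75 ± 0.43 (edgeR, adjusted p = 0.0174), where 1.47% of all genes rose, and the call was lost on leaving out either SE 24 h replicate 1 or SE 12 h replicate 3. The Cst7 call was also lost in limma-voom, with counts thinned to the smallest library and with only the groups compared in the fit. From 24 to 36 h edgeR called 0 members (0.529% of all genes), with 2 at an unadjusted p under 0.05, and DESeq2 called 1. From 36 to 72 h 5 members rose, where 3.08% of all genes rose: Cst7 by 2.30 ± 0.40, Gpnmb by 1.56 ± 0.29, Apoe by 1.55 ± 0.18, Tyrobp by 1.36 ± 0.18 and Trem2 by 1.33 ± 0.20 (edgeR, adjusted p from 3.39e-05 for Apoe to 0.00211 for Gpnmb). Spp1 did not pass between 36 and 72 h (-0.50 ± 0.39, edgeR, adjusted p = 0.454). Lpl did not pass either (-0.98 ± 0.46, edgeR, adjusted p = 0.188), although its 3 libraries at 72 h all lay below those at 36 h.

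The difference of SE from Ctr itself changed with time for several members, as tested by interaction terms. From 12 to 36 h it grew for 3 members, where it grew for 1.99% of all genes, and from 12 to 72 h for 3 (12.3%) and from 36 to 72 h for 3 (3.69%). These terms share groups with one another. Trem2 passed in all of them, by 1.32 ± 0.29 (edgeR, adjusted p = 0.018), 2.73 ± 0.30 (edgeR, adjusted p = 7.38e-06) and 1.42 ± 0.29 (edgeR, adjusted p = 0.0101). The effect on Gpnmb was 2.45 ± 0.47 larger at 36 than at 12 h and 4.01 ± 0.51 larger at 72 than at 12 h. Tyrobp gained 1.66 ± 0.27 from 12 to 72 h and 1.21 ± 0.27 from 36 to 72 h, and Apoe gained 1.17 ± 0.26 from 36 to 72 h. With the label number range in the model, Apoe passed from 36 to 72 h (1.09, edgeR, adjusted p = 0.0438), while the calls of Trem2 (1.23, edgeR, adjusted p = 0.0596) and Tyrobp (1.19, edgeR, adjusted p = 0.0521) were lost. With counts thinned to the smallest library all 3 calls from 12 to 36 h were lost, at 2.44 for Spp1, 2.04 for Gpnmb and 1.05 for Trem2 (edgeR, adjusted p = 0.0839, 0.12 and 0.196). Spp1 gained 2.57 ± 0.61 from 12 to 36 h (edgeR, adjusted p = 0.0256), a call lost without any 1 of 5 libraries (the 3 of Ctr 36 h, Ctr 12 h replicate 2 and SE 12 h replicate 2), while that of Trem2 was lost without Ctr 12 h replicate 2. The Spp1 call was also lost in limma-voom, with no RUVr factor of unwanted variation and with a ganglion score in its place. In limma-voom the Tyrobp call from 36 to 72 h was lost too. From 12 to 72 h Spp1 gained 1.09 ± 0.63 (edgeR, adjusted p = 0.225), and 2.45 ± 0.63 without Ctr 72 h replicate 2 (edgeR, adjusted p = 0.0111). Lgals3, Itgax, Lpl and Clec7a passed in none of the 3. Clec7a from 12 to 72 h lay at the limit (3.43 ± 1.23, edgeR, adjusted p = 0.0503). There it again did not pass in 7 of 11 other settings. It passed in DESeq2, with scaling by library size only, with thinned counts and with a ganglion score instead of RUVr. Cst7 did not pass from 12 to 36 h, with 1 and 4 Ctr counts behind the term, and is not read in the terms with 72 h, where Ctr was at 0.

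Per kilobase of exon, taking the union of all annotated exons of a gene as its length, Apoe led in every group except SE 24 h and SE 36 h. These lengths ran from 682 bases for Tyrobp to 12225 for Lpl. The length of the transcripts in use was not measured, so the order of genes depends on these lengths and is approximate. In Ctr 36 h Apoe stood at 306 ± 12.0 CPM per kb (SD, n = 3), Tyrobp at 15.4 ± 1.55, Lpl at 2.99 ± 0.35, Trem2 at 2.47 ± 0.12 and Spp1 at 1.85 ± 0.41, with Gpnmb, Lgals3, Clec7a, Cst7 and Itgax below 0.3. Lpl and Trem2 lay apart by little more than the spread of Lpl, and Lgals3, Clec7a, Cst7 and Itgax overlapped. In SE 36 h Spp1 led at 306 ± 63.5 CPM per kb, then Apoe at 154 ± 44.7, Tyrobp at 46.0 ± 2.41, and Lgals3, Lpl and Trem2 at 8.32 ± 2.21, 7.60 ± 2.14 and 6.44 ± 1.21, which did not differ beyond their spread. In SE 72 h the order was Apoe at 447 ± 34.6, Spp1 at 224 ± 51.5, Tyrobp at 119 ± 25.4, then Trem2 at 16.3 ± 3.31, Cst7 at 14.5 ± 4.13, Lgals3 at 13.5 ± 4.96 and Gpnmb at 11.01 ± 3.07, again within their spread, and Clec7a, Lpl and Itgax at 4.29 ± 1.61, 3.83 ± 1.42 and 0.635 ± 0.309. As a share of the members' summed CPM, Apoe went from 94.8% ± 0.58 in Ctr 36 h to 36.5% ± 10.0 in SE 36 h, while Spp1 went from 0.403% ± 0.096 to 51.0% ± 9.14 (SD, n = 3).

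Genes of microglia and macrophages in general rose over the same days, and the members were set against them. Of 12 genes that mark microglia and macrophages in general, such as Csf1r, Irf8, Spi1 and the C1q chains, 3, 5, 9, 10 and 12 rose in the order of time, and 2, Aif1 and Csf1r, fell at 6 h. Their mean log2 CPM was 3.55 to 3.75 in the Ctr groups and 6.65 ± 0.26 (SD, n = 3) in SE 72 h. Irf8 and Spi1, transcription factors of the macrophage line, rose by 3.93 ± 0.28 and 3.78 ± 0.31 at 72 h.

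Relative to the mean of these 12 genes, Trem2 and Tyrobp moved by less than 1 on the log2 scale between groups. Trem2 lay between 0.01 ± 0.29 in Ctr 12 h and -0.64 ± 0.10 in SE 24 h on the log2 scale, and Tyrobp between -0.50 ± 0.09 in Ctr 12 h and -0.02 ± 0.11 in SE 12 h (SD, n = 3). Spp1 moved from -1.33 ± 0.39 in Ctr 36 h to 1.84 ± 0.47 in SE 6 h and 4.37 ± 0.43 in SE 36 h, and came down to 2.64 ± 0.57 in SE 72 h. Lgals3 went from -4.79 ± 1.20 in Ctr 36 h to -0.25 ± 0.23 in SE 12 h and -1.76 ± 0.64 in SE 72 h, where it overlapped Ctr 72 h at -2.86 ± 1.93. That overlap rested on the ganglion-rich Ctr 72 h replicate 2 alone, at -0.64. The lowest Ctr 72 h library lay at -4.04, and SE 72 h ran from -2.49 to -1.32. Gpnmb went from -2.79 ± 0.23 in Ctr 72 h to -0.50 ± 0.62 in SE 72 h and Cst7 from -6.67 ± 0.12 to -2.35 ± 0.24. Itgax stood at -2.25 ± 0.25 in SE 6 h and -5.09 ± 1.00 in SE 72 h, beside -5.71 ± 1.55 in Ctr 72 h, so that at 72 h it overlapped its Ctr on this scale. Apoe went from 6.54 ± 0.05 in Ctr 36 h to 3.87 ± 0.31 in SE 36 h and stood at 4.17 ± 0.25 in SE 72 h, and Lpl from 3.16 ± 0.16 in SE 12 h to -1.16 ± 0.50 in SE 72 h, below all Ctr libraries. For genes near 0 counts these differences depend on the prior count of 2 added before the log. No test was run on them.

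**Figure D4:**
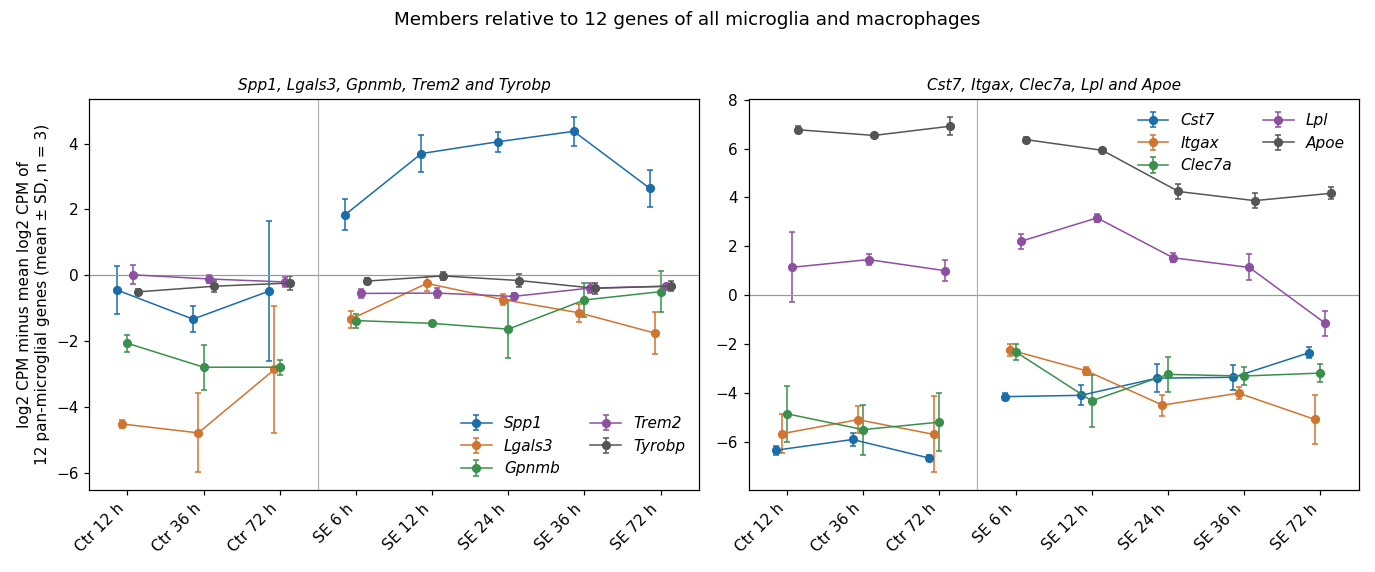
Log2 CPM of each member minus the mean log2 CPM of 12 pan-microglial genes in the 8 groups (mean ± SD, n = 3). Trem2 and Tyrobp stay between -0.64 and 0.01, Spp1 climbs to 4.37 in SE 36 h, and Apoe and Lpl end at 4.17 and -1.16 in SE 72 h.

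The homeostatic genes of microglia moved the other way at first. Of 13 tested, 8 fell at 6 h and 6 at 12 h, 4 rose and 4 fell at 24 h, 4 rose and 3 fell at 36 h, and 11 rose at 72 h. P2ry12, the receptor by which microglial processes sense ADP, fell by 3.55 on the log2 scale at 6 h (standard error 0.24, edgeR, adjusted p = 1.25e-09), by 3.69 at 12 h and by 2.12 at 36 h. Selplg, a selectin ligand, fell by 3.65 at 12 h and Siglech, a lectin of microglia, by 3.16 at 36 h. Olfml3, which shares their list but not this course, rose by 1.57 ± 0.17 at 24 h and by 3.07 ± 0.25 at 72 h. At 72 h, 8 of 10 members and 11 of 13 homeostatic genes were called higher, and 8 and 10 without Ctr 72 h replicate 2.

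A longer list of 30 other genes of the disease-associated state was read in the same way. Of these, 14, 15, 17, 18 and 22 rose in the order of time, with 1, Fabp5, falling at 12 h, and the list's median log2 fold change went from 0.55 at 6 h to 1.93 at 72 h. Ch25h, which makes 25-hydroxycholesterol, rose by 4.40 ± 0.37 at 6 h and 5.63 ± 0.57 at 36 h. Lilrb4a, an inhibitory receptor whose reads can be shared with its near-identical neighbour Lilrb4b, rose by 4.63 ± 0.47 at 6 h and 4.60 ± 0.67 at 72 h. Cd68, a lysosomal protein of phagocytes, rose by 5.31 ± 0.35 at 72 h, from 5.46 to 134 CPM.

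**Figure D5:**
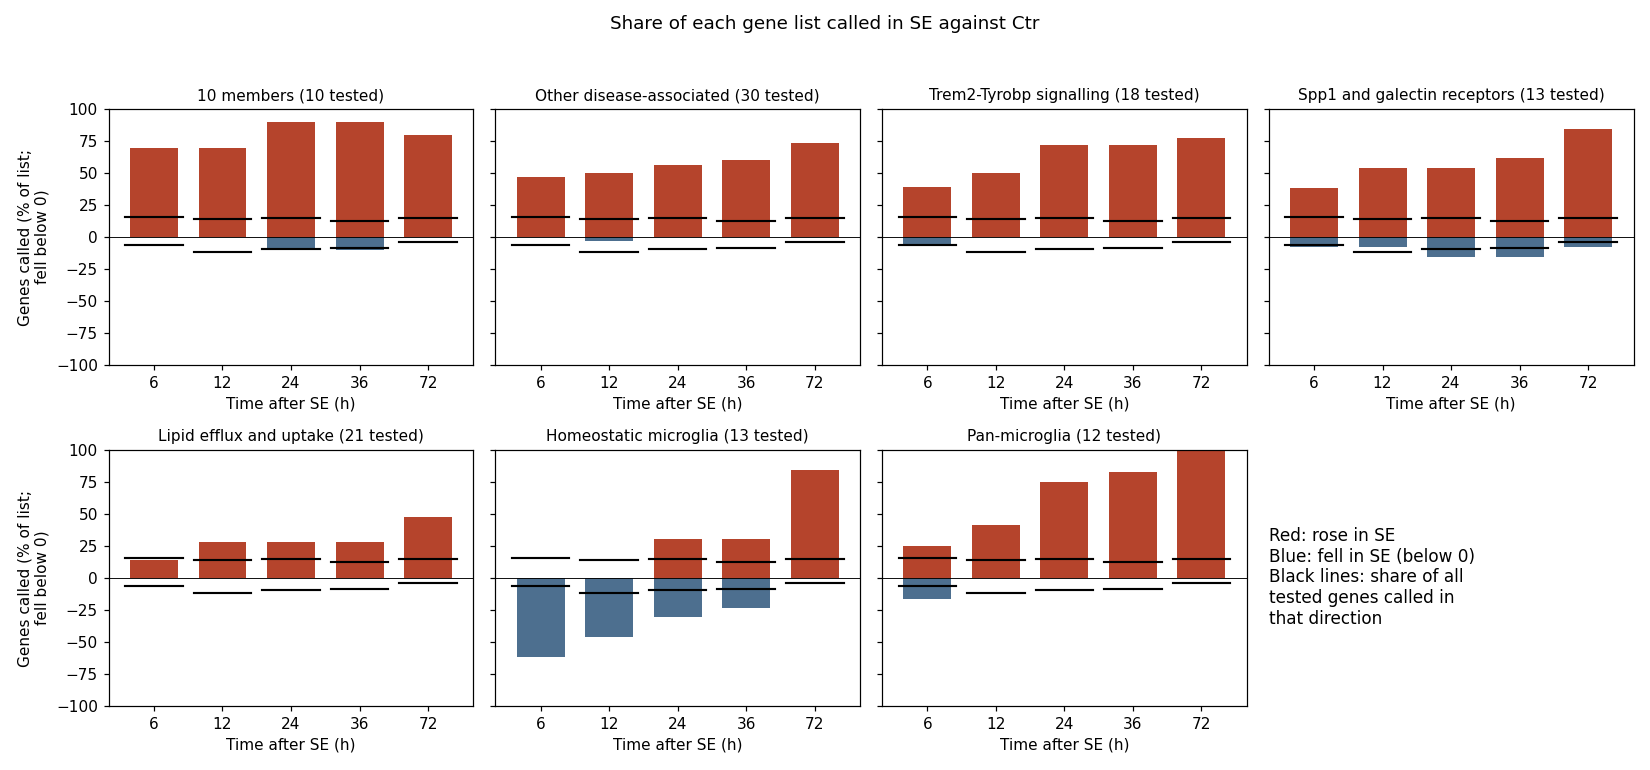
Share of each gene list called higher (red, above 0) or lower (blue, below 0) in SE than in Ctr at 5 times, with black lines at the share of all 18153 genes called in that direction. The homeostatic list turns from 8 of 13 genes lower at 6 h to 11 of 13 higher at 72 h, while the share of members called higher is 7 to 9 of 10 throughout.

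Several members are also expressed by macrophages that enter from blood or lie at brain borders, and the markers of those cells were read in the same libraries. Of 7 genes of infiltrating monocytes tested, 1, 4, 5 and 6 rose at 6, 24, 36 and 72 h, and their summed level (8 genes measured) went from 69.3 to 169 CPM in Ctr to 442 to 611 CPM in SE 72 h. Most of that sum was Fn1 (fibronectin), which vessels and other cells also make and which rose by 1.89 ± 0.24 at 72 h. Ccr2, the defining receptor of these monocytes, had a median of 0 CPM in Ctr and 0.400 CPM in SE and was at 0 in 6 libraries. Without the 5 ganglion-rich libraries, 2 of the 7 rose at 72 h, where Ctr kept 2 libraries and SE 1. Of 8 border macrophage genes, 1, 2, 3, 3 and 3 rose, Stab1 by 3.01 ± 0.23 at 72 h and Lyve1 by 2.93 ± 0.59 at 36 h, and 5 rose at 72 h without Ctr 72 h replicate 2. Their summed level went from 25.7 to 60.5 CPM in Ctr to 204 to 281 CPM in SE 72 h. Most of that sum was Stab1, with means of 26.1 CPM in Ctr 72 h and 209 CPM in SE 72 h. Of 6 neutrophil genes tested, 2, 1, 2 and 2 were called higher at 6, 12, 24 and 72 h. Without Ctr 72 h replicate 2 the calls at 6, 24 and 72 h were all lost. The 7 neutrophil genes measured summed to 1.08 to 15.9 CPM in Ctr and 1.04 to 22.7 CPM in SE, with Ngp and Cxcr2 at a median of 0 in SE. Of the lymphocyte list Cd4 alone was measured, and it was called higher at 6 h (2.13 ± 0.76) and at 24 h (2.18 ± 0.74), at means of 0.828 and 0.866 CPM. The part of these cells in the members' changes was not tested.

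Across the 24 libraries, which share the contrast of SE with Ctr and its time course, the members' log2 CPM gave these Pearson correlations, as a description. Spp1 and Lgals3 had r = 0.948, Cst7 and Tyrobp 0.952, Gpnmb and Cst7 0.932 and Trem2 and Tyrobp 0.930. Lpl had r = 0.0649 with Trem2 and 0.635 with Lgals3, and Apoe was negative with 8 of the other members and at 0.0154 with Trem2. The gene most like each member, among 13720 genes with a mean of at least 1 on the log2 CPM scale, was Grn (progranulin, a lysosomal protein) for Trem2 at r = 0.982, AI506816 for Spp1 at 0.982, Lcp2 for Tyrobp at 0.980, AU020206 for Cst7 at 0.974, Arpc1b for Lgals3 at 0.972, Lyn for Gpnmb at 0.951, Apobec3 for Clec7a at 0.924, Selenop for Apoe at 0.921, Eif4g1 for Lpl at 0.912 and Ch25h for Itgax at 0.904.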

How the data were processed

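RNA of CA1 was sequenced in 24 libraries. The authors deposited raw counts per gene; per the labels the tools were Trim Galore 0.6.6, STAR 2.7.8a, SAMtools 1.10 and HTSeq 0.13.5 on GRCm39. The library kit does not mark strand. Of 18647 gene IDs, 18552 matched a symbol and 95 did not. Groups were taken from the labels, which do not say that libraries come from separate animals, so p-values measure the spread between these libraries. Counts were fitted over all 8 groups with edgeR 4.0.16 (R 4.3.3; filterByExpr, TMM, quasi-likelihood test) with 1 RUVr factor, which left 18153 genes. Adjusted p (Benjamini-Hochberg) of at most 0.05 was required, with a log2 fold change of at least 0.66 in size for SE against Ctr and interactions and 1 between SE times. Log2 CPM used a prior count of 2. SE 6 h and 24 h, which have no Ctr of their own, were set against the mean of the 3 Ctr groups. Named genes were all members, up to 2 genes that rose and 2 that fell per list and comparison (mean log2 CPM 1 or more), markers at or near 0, and the gene most like each member. Members and lists were chosen with earlier results of these data known. Alternatives included DESeq2 1.42.0, limma 3.58.1 (voom), other scalings and filters, and leaving out each library. Leaving out the 5 libraries rich in ganglion genes was chosen after seeing the data. The fit was tested on simulated data. Some items are not reported here.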

Additional observations from a re-analysis of the deposited data

Results flagged for a closer look

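The difference between SE and Ctr changed with time in 9 interaction terms of the members (edgeR's quasi-likelihood test, p adjusted over all genes by Benjamini-Hochberg), which share groups with one another. From 12 to 36 h it grew by 2.57 for Spp1 (standard error 0.61, edgeR, adjusted p = 0.0256), by 2.45 for Gpnmb (standard error 0.47, edgeR, adjusted p = 0.00883) and by 1.32 for Trem2 (standard error 0.287, edgeR, adjusted p = 0.018). From 12 to 72 h it grew by 4.01 for Gpnmb (edgeR, adjusted p = 4.09e-05), by 2.73 for Trem2 (edgeR, adjusted p = 7.38e-06) and by 1.66 for Tyrobp (edgeR, adjusted p = 0.000389). From 36 to 72 h it grew by 1.17 for Apoe (edgeR, adjusted p = 0.0135), by 1.42 for Trem2 (edgeR, adjusted p = 0.0101) and by 1.21 for Tyrobp (edgeR, adjusted p = 0.0146). With the label number range in the model, the calls of Trem2 and Tyrobp from 36 to 72 h were lost (1.23 and 1.19, edgeR, adjusted p = 0.0596 and 0.0521), and with thinned counts all 3 calls from 12 to 36 h were lost. The Spp1 call was also lost with no RUVr factor, in limma-voom and with a ganglion score instead of RUVr. In limma-voom the Tyrobp call from 36 to 72 h was lost too. At 72 h no run of label numbers held both SE and Ctr libraries, so run and condition cannot be told apart there.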

How the results depend on the processing

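With at least 10 counts required in every library, which left 5 members tested, 2, 3, 5, 5 and 3 members were called against Ctr in the order of time, and 1, 0 and 3 between SE 6 and 12 h, 12 and 24 h, and 36 and 72 h. The count between SE 6 and 12 h was 1 with no RUVr factor, with the label number range in the model, with thinned counts and with a ganglion score instead of RUVr, 0 with only the groups compared, and 1 to 2 with a library left out. Between SE 12 and 24 h it was 2 in DESeq2, 2 in limma-voom (Clec7a among them and Cst7 not), 0 with thinned counts, 0 with only the groups compared, 4 with no log2 threshold or one of 0.66, 2 without the 5 ganglion-rich libraries, and 1 to 2 with a library left out. Between SE 24 and 36 h it was 1 in DESeq2 and 1 without those 5 libraries. For the interaction from 12 to 36 h it was 0 with thinned counts and 1 to 4 with a library left out, from 12 to 72 h 3 to 5 with a library left out, and from 36 to 72 h 1 with the label number range. Directions that turned were all of values that had not passed: Trem2 at 12 h was -0.12 with the label number range and -0.16 to 0.31 with a library left out, Apoe at 72 h was -0.040 with the label number range, and Apoe at 6 h was -0.23 to 0.041 with a library left out.

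Same-numbered libraries did not deviate together (mean r = -0.00354 over 84 pairs, 19 over 0.1, and 8 of 24 libraries correlated best with their own number), so replicate numbers were not taken as pairs. With the replicate block, 1 member was called between SE 6 and 12 h. Scaling by library size only moved the median log2 fold change of all genes at 36 h from 0.00 to 0.13 and the calls from 2308 higher and 1618 lower to 2782 and 1197. The 2663936 counts of the smallest library, a Ctr 72 h library, limit what can be said of Cst7, Itgax and Clec7a, whose Ctr counts were near 0.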
